A study of Mus musculus with 6 samples.

Results

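Th, Ddc, Slc18a2, Gch1 and Nr4a2 are 5 of the 18560 genes counted in single cells of the mouse olfactory bulb, and they were chosen by symbol as genes of dopamine synthesis and storage. All mice were C57BL/6NJ, 14 weeks old, and no group carried a transgene. There were 6 libraries from pooled bulbs, with 3 mice in each pool. The control group had no olfactory manipulation according to the labels. The results text of the study names naive controls, but for occlusion it also gives the open side of occluded mice as the control. In the naris occluded group, a plug in a nostril removed olfactory input for 6 weeks. In the olfactory trained group, water-deprived mice learned over 6 weeks to tell rewarded from unrewarded odors, so training and water deprivation cannot be told apart in these libraries. Each group had 2 libraries, males in replicate 1 and females in replicate 2. The libraries held 6705 to 10570 annotated cells and 11841160 to 17065083 transcript molecules, counted by unique molecular identifiers (UMIs). Pairs of libraries shared between 65 and 144 cell barcodes. Of the 51426 annotated cells, 21746 also carried a neuronal cluster. The 5 genes were followed over the 18 neuronal clusters, such as n05-PGC-2 (PGC, periglomerular cell), and over the 38 clusters of the whole bulb, such as Neuron11. All 5 genes had UMIs in every library.

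Dopamine is made from tyrosine in a pair of steps. Th, tyrosine hydroxylase, makes L-DOPA and is the rate-limiting enzyme, and Ddc, the aromatic amino acid decarboxylase, turns L-DOPA into dopamine. Th needs the cofactor tetrahydrobiopterin, whose synthesis starts with Gch1, GTP cyclohydrolase, and Slc18a2 (VMAT2) loads dopamine into vesicles. Nr4a2 (Nurr1) is a nuclear receptor of the immediate early kind that midbrain dopamine neurons need. In the bulb, dopamine neurons are inhibitory cells around the glomeruli, they are renewed in adult life, and loss of Th after closure of a nostril is a textbook example of gene expression that depends on sensory input.

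Since closure of a nostril removes activity, the promoters were read for the letters bound by activity-dependent factors and by Nr4a factors. RefSeq promoters on GRCm38.p6, 250 bases before to 50 after each start, were found for all 5 genes, with a pair of starts for Ddc. The searched letters, on both strands, were AAAGGTCA (NBRE, bound by Nr4a factors), TGACGTCA (CRE, bound by CREB) and TGANTCA (AP-1, bound by Fos and Jun). Over 32851 promoters of 300 bases, NBRE letters were in 1.51%, CRE letters in 1.79% and AP-1 letters in 7.81%, and no match of a motif overlapped another in the stretches shown. These are shown because they hold each match among the 5 genes, with the matches in capitals, 5′ to 3′ on the strand of the gene. The stretches lie at chr7:142900003-142900235 (minus strand) for Th, chr11:11898180-11898303 (minus strand) for Ddc and chr19:59260844-59260881 (plus strand) for Slc18a2.
Th: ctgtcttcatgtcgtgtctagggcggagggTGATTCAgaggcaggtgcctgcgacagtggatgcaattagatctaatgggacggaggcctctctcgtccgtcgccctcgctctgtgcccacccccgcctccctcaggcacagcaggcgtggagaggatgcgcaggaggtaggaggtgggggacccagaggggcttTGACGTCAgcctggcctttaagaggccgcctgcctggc
Ddc: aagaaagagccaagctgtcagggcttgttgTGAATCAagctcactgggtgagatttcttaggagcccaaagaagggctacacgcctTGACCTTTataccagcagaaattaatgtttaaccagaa
Slc18a2: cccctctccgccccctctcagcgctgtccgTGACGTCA

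The Th stretch held an AP-1 match at position −210 and a CRE match at −45, counted from the start of the gene. The Ddc stretch held an AP-1 match at −129 and an NBRE match, on the other strand, at −73. The CRE match of Slc18a2 began at −4 and ran over the start. The windows of Gch1, of Nr4a2 and of the second Ddc start held none of the searched letters, which says nothing of sites elsewhere. A match is a description of letters, and binding was not measured. On GRCm38.p6 the genes lie at chr7:142892779-142899995 (Th), chr11:11814101-11898144 (Ddc), chr19:59260878-59296012 (Slc18a2), chr14:47153895-47189413 (Gch1) and chr2:57106830-57124003 (Nr4a2).

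To determine where each gene was expressed, UMIs were summed over the cells of a cluster in each library and scaled to counts per 1000000 UMIs of all genes in those cells (CPM). Th had its highest level in n05-PGC-2, with 1277 ± 225 CPM (SD, n = 6 libraries). The next levels were 243 ± 247 CPM in n18-EPL-IN, interneurons of the external plexiform layer, and 150 ± 21.7 CPM in the granule cell cluster n11-GC-5. Levels in n18-EPL-IN ran from 0 to 688 CPM over libraries, so n18-EPL-IN and n11-GC-5 overlapped, whereas n05-PGC-2 was the highest cluster in each of 6 libraries. Ddc was also highest in n05-PGC-2, with 53.5 ± 14.5 CPM, and the next cluster, n18-EPL-IN, had 9.72 ± 23.8 CPM from 1 UMI in 161 cells. For Ddc n05-PGC-2 was the highest cluster in 5 of 6 libraries and held 50.5% of the neuronal UMIs. For Th this share was 53.3%. Gch1 had 23.1 ± 8.21 CPM in n05-PGC-2 and 9.97 ± 24.4 CPM in n18-EPL-IN, from 2 UMIs, and n05-PGC-2 was the highest in 5 of 6 libraries. The vesicular transporter Slc18a2 was not highest in n05-PGC-2, since n18-EPL-IN had 59.5 ± 24.4 CPM and n05-PGC-2 had 54.2 ± 17.7 CPM, a difference well within the spread over libraries, and n05-PGC-2 was the highest in 3 of 6. Slc18a2 came to 19.8 ± 18.1 CPM in n10-GC-4, which followed. Nr4a2 had 110 ± 48.1 CPM in n05-PGC-2, 38.5 ± 6.93 CPM in n11-GC-5 and 23.97 ± 21.8 CPM in n14-GC-7, the latter pair overlapping. Only 20.6% of neuronal Nr4a2 UMIs came from n05-PGC-2, against 38.1% for Slc18a2 and 30.7% for Gch1, and the larger n11-GC-5 held more of them, with 140 UMIs against 106. Since the authors clustered the cells on these same counts, these levels are a description with no test.

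The label of n05-PGC-2 was checked with marker genes. Gad1, Gad2 and Slc32a1, genes of inhibitory neurons, summed to 2634 to 3465 CPM over its 6 libraries. Genes of mitral and tufted cells summed to at most 67.5 CPM, with the glutamate transporter Slc17a6 at 0. The oligodendrocyte gene Mog and the erythroid gene Alas2 were also at 0, but the other genes of their lists had UMIs. UMIs of sensory neuron genes (Omp, Gng13, S100a5 and Gnal) summed to 271 to 1096 CPM in n05-PGC-2, and those of oligodendrocyte genes to 655 to 1037 CPM. Immature neuron genes summed to 460 to 801 CPM, astrocyte genes to 106 to 330 CPM and endothelial genes to 39.7 to 229 CPM. Microglial genes came to 42.4 to 203 CPM and blood genes to 21.2 to 172 CPM. No correction for free RNA was made, and its part in these sums was not tested.

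In the whole-bulb annotation, Th and Slc18a2 lay mostly in neurons, Nr4a2 less so, and Ddc and Gch1 mostly outside them. Neuron11 had 168 cells, of which 166 were in n05-PGC-2. Its Th level was 1589 ± 258 CPM, against 130 ± 18.9 CPM in Neuron05 and 109 ± 44.6 CPM in Neuron10. Slc18a2 was also highest in Neuron11, with 41.4 ± 20.0 CPM, but Neuron10 had 29.6 ± 13.1 CPM, and the 2 overlapped. Nr4a2 was highest there too, with 127 ± 62.8 CPM, followed by 34.9 ± 6.52 CPM in Neuron05 and 32.6 ± 23.4 CPM in the mesenchymal cluster Mes1. The enzymes Ddc and Gch1, in contrast, had their highest levels in blood vessels. Ddc had 85.0 ± 10.3 CPM in EC1, the larger cluster of endothelial cells, against 56.7 ± 20.9 CPM in Neuron11 and 52.7 ± 16.7 CPM in EC2. Gch1 had 109 ± 34.1 CPM in EC1, 51.6 ± 30.02 CPM in Mural1 and 30.8 ± 8.08 CPM in EC2, while Neuron11 came after these with 24.8 ± 10.99 CPM. Levels of Gch1 in Mural1, EC2 and Neuron11 overlapped. Endothelial cells were 7.09% of annotated cells and held 51.2% of the Ddc UMIs and 66.0% of the Gch1 UMIs, but 1.59% of the Th UMIs and 1.60% of the Slc18a2 UMIs. Neurons were 43.8% of annotated cells and held 84.3% of the Th UMIs, 80.9% of the Slc18a2 UMIs and 60.2% of the Nr4a2 UMIs. Olfactory ensheathing cells, 22.5% of cells, held 19.8% of the Nr4a2 UMIs.

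**Figure D1:**
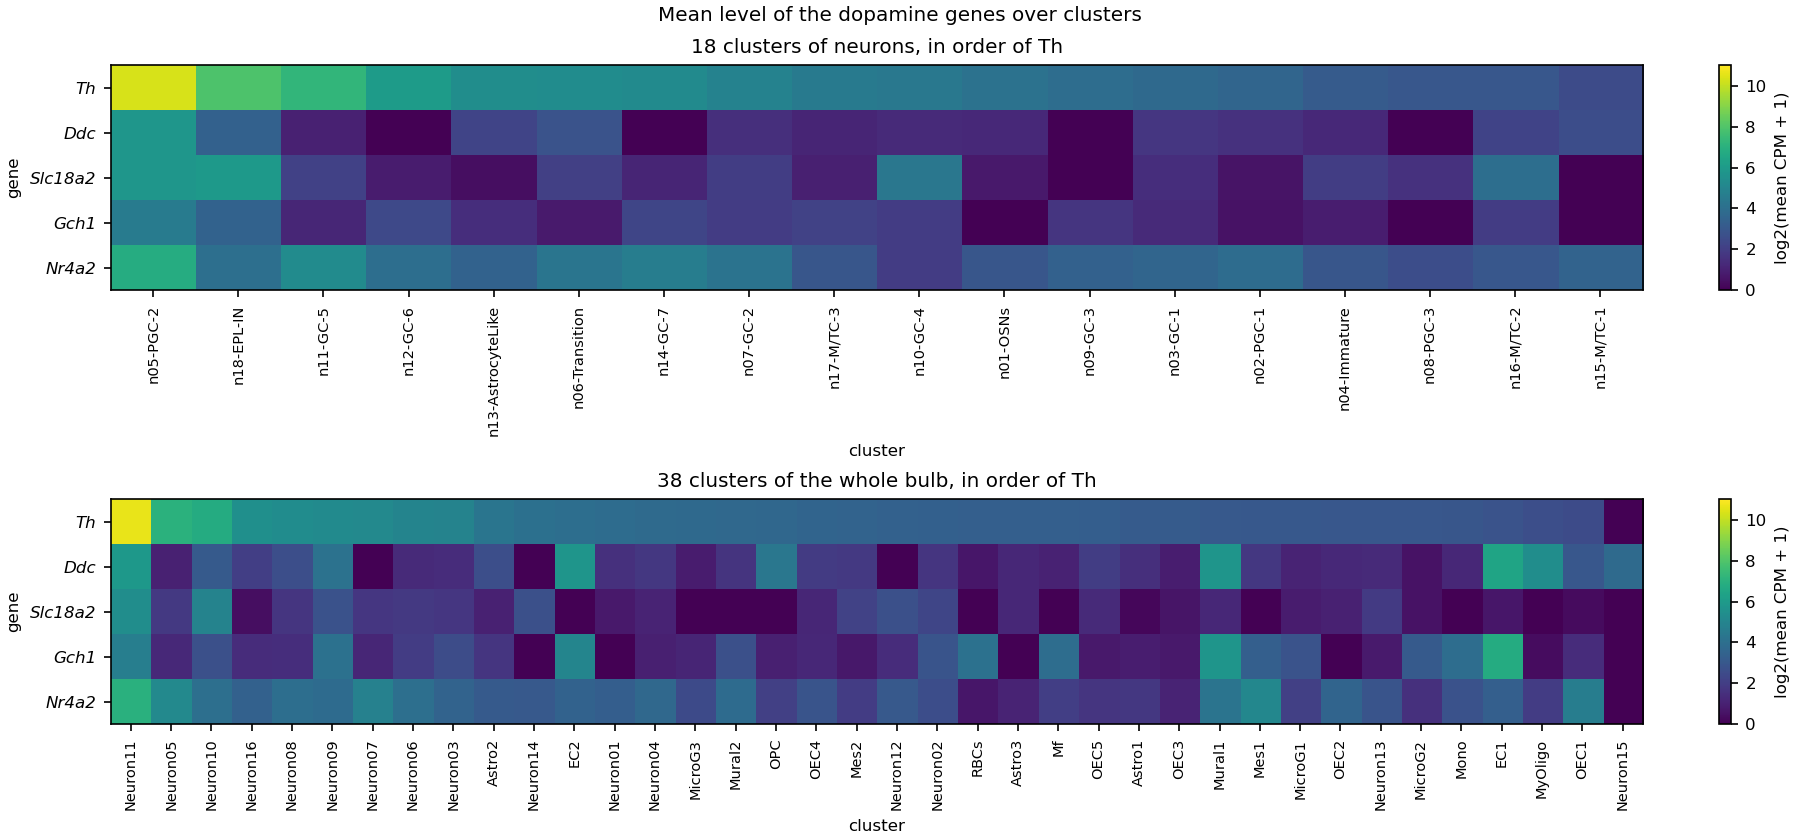
Mean CPM of the 5 genes over the 6 libraries in neuronal clusters and in clusters of the whole bulb. Th, Ddc, Gch1 and Nr4a2 peak in n05-PGC-2 among neurons, whereas over the whole bulb Ddc and Gch1 are highest in the endothelial cluster EC1, at 85.0 and 109 CPM.

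To ask which genes follow Th, each gene's log2(mean CPM + 1) was correlated with that of Th over clusters, as a description over points that share libraries and depth. Over the 18 neuronal clusters, r was 0.79 for Nr4a2, 0.78 for Gch1, 0.60 for Slc18a2 and 0.56 for Ddc. Of 7021 genes that reached 50 CPM in a cluster, Nr4a2 had the second highest r, after Trh, which encodes the precursor of thyrotropin-releasing hormone, with 0.85. The next genes were Prss12, a secreted serine protease, with 0.79, Cnih3, an auxiliary subunit of AMPA receptors, with 0.78, and Gabrd, a subunit of GABA-A receptors, with 0.75. Trh had 3881 CPM in n05-PGC-2 and 874 CPM in n18-EPL-IN, the cluster next in Th as well. Over the 38 clusters of the whole bulb, Slc18a2 and Nr4a2 kept an r of 0.72 and 0.70, but Gch1 had 0.20 and Ddc 0.13. The genes most like Th over these clusters were Scgn, a calcium sensor (0.87), Trh (0.85), Acvr1c, an activin receptor (0.84), Prss12 (0.82) and Chrm2, a muscarinic receptor (0.81). The values among neurons were not stable for these 2 enzymes, since Ddc had 0.15 by Spearman and −0.12 with only the control libraries, and Gch1 had 0.42 in cells of at least 1000 UMIs.

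Within n05-PGC-2, Th itself was uneven. Of 377 cells, 226 (59.9%) had a Th UMI, 168 had at least 2, 49 had at least 10 and the highest had 24. For comparison, 1.42% of cells of the microglial cluster MicroG1, at a median of 1847 UMIs against 1931 in n05-PGC-2, had a Th UMI. The whole-bulb annotation placed 166 of the n05-PGC-2 cells in Neuron11 and 167 in Neuron10. Among the former, 154 had a Th UMI (92.8%), at a median of 4020 UMIs. Among the 211 cells outside Neuron11, 72 had a Th UMI (34.1%), at a median of 920 UMIs. Their Th level was 432 ± 61.2 CPM, against 1617 ± 279 CPM inside Neuron11, and the libraries of these sets of cells did not overlap. The cells outside Neuron11 also had more UMIs of sensory neuron genes in each group, with 370 to 2406 CPM over libraries against 241 to 759 CPM in Neuron11. The lowest of these, from an occluded library, lay within the range of Neuron11. How much these UMIs or the lower depth bear on the Th level outside Neuron11 was not tested.

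Cells of n05-PGC-2 were then split by the presence of a Th UMI, with Th left out of the totals. Median depth was 3026 to 4388 UMIs over libraries in cells with Th and 734 to 1003 UMIs in cells without, except in occluded replicate 2, where cells without Th had 3344.5 UMIs, and the part of depth in these values was not tested. Nr4a2 was higher in cells with Th in 6 of 6 libraries, at 125 ± 52.4 CPM against 42.3 ± 35.1 CPM, with 96 of its 106 UMIs in those cells. Most UMIs of the other genes were in the cells with Th as well. Ddc had 45 there against 8 in cells without, Slc18a2 41 against 12 and Gch1 19 against 4. Among cells with at least 1000 UMIs the difference of Nr4a2 was 91.7 ± 58.9 CPM (higher in 6 of 6 libraries). In such cells the difference was 23.2 ± 52.2 CPM for Ddc and 21.2 ± 49.5 CPM for Slc18a2 (4 of 6 each). Gch1 was higher in 5 of 6 libraries, but its means of 25.1 ± 5.86 and 17.7 ± 23.98 CPM differed by less than the spread. Among cells with at least 1000 UMIs the difference of Gch1 was −1.36 ± 31.4 CPM (higher in 3 of 6 libraries), and with the split at 2 Th UMIs it was 17.3 ± 11.8 CPM (6 of 6), from 23 or fewer UMIs in all. Ddc was higher in 4 of 6 libraries, at 57.5 ± 18.6 CPM against 27.9 ± 35.6 CPM, and the difference of 29.6 ± 43.2 CPM was also less than its spread. Slc18a2 did not separate the cells, with 55.3 ± 24.3 CPM and 54.6 ± 50.1 CPM. In single cells, 115 of the 226 cells with Th also had a UMI of at least 1 of the other 4 genes, 31 of at least 2 and 4 of at least 3. Of the remaining cells among the 377, 27 had a UMI of at least 1 of these 4 genes, at the depths given above. In cells outside Neuron11, Slc18a2 had 2 to 5 UMIs in each library, corresponding to 56.9 to 116 CPM, while Gch1 had 2 and 4 UMIs in the control libraries and 0 in the other 4. A count of 0 in these few cells does not show absence.

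To test which genes fall with occlusion, the conditions were compared on summed counts of n05-PGC-2 by the quasi-likelihood test of edgeR, with all 6 libraries in the fit. No gene passed an adjusted p of 0.05 among the 3613 tested between occluded and control libraries (0% called). An unadjusted p under 0.05 was found for 123 genes, and DESeq2 called 0. None of the 4 genes tested passed, and Gch1 was below the filter on low counts. The values of the 2 genes with most UMIs follow, since both pairs of libraries were separated.

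Th had 1443 and 1373 CPM in the control libraries, 1092 and 927 CPM in the occluded libraries, and 1516 and 1313 CPM in the trained libraries, replicate 1 first, from 140 to 286 UMIs. Both occluded libraries lay below the other 4, and control and trained libraries overlapped. The fitted log2 fold change of occluded against control was −0.49 (SE 0.22, 95% interval −0.94 to −0.04, edgeR adjusted p = 0.998), with an unadjusted p under 0.05. Of the genes tested in n05-PGC-2, 13.2% had both occluded libraries below both controls in CPM. Trained against occluded gave 0.49 (SE 0.22, edgeR adjusted p = 0.952), and trained against control gave −0.0023 (interval −0.45 to 0.44). In the same order of libraries, Nr4a2 had 90.9 and 146 CPM, 61.8 and 53.0 CPM, and 138 and 169 CPM. The libraries rested on 17 and 26, 9 and 8, and 26 and 20 UMIs, and the occluded libraries were again the lowest. Its log2 fold change was −1.04 in occluded against control (SE 0.44, interval −1.93 to −0.16, edgeR adjusted p = 0.998) and 1.39 in trained against occluded (SE 0.43, interval 0.51 to 2.26, edgeR adjusted p = 0.903). Occluded against control was −0.68 for Nr4a2 without control replicate 2. In trained against occluded 0.0277% of genes were called, and 16.2% had both trained libraries above both occluded ones.

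The other 3 genes had few UMIs in n05-PGC-2, and the groups of Ddc and Slc18a2 overlapped. Ddc had 64.2 and 50.6 CPM in control, 41.2 and 72.8 CPM in occluded and 58.3 and 33.9 CPM in trained libraries, from 4 to 12 UMIs. Its log2 fold change of occluded against control was −0.02 (interval −1.11 to 1.08). Slc18a2 had 64.2 and 39.4 CPM, 61.8 and 26.5 CPM, and 74.2 and 59.3 CPM, and its change was −0.25 (interval −1.44 to 0.94). These intervals include a fall as large as that of Th and also no change, so a difference was not detectable at this depth. Gch1 had 7 and 5 UMIs in the control libraries, 3 and 3 in the occluded and 3 and 2 in the trained, or 37.4 and 28.1, 20.6 and 19.9, and 15.9 and 16.9 CPM. Both controls were the highest (15.7% of genes had both trained libraries below both controls), but the gene was not tested, and without the filter its change was −0.78 (SE 0.74, edgeR adjusted p = 0.990).

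**Figure D2:**
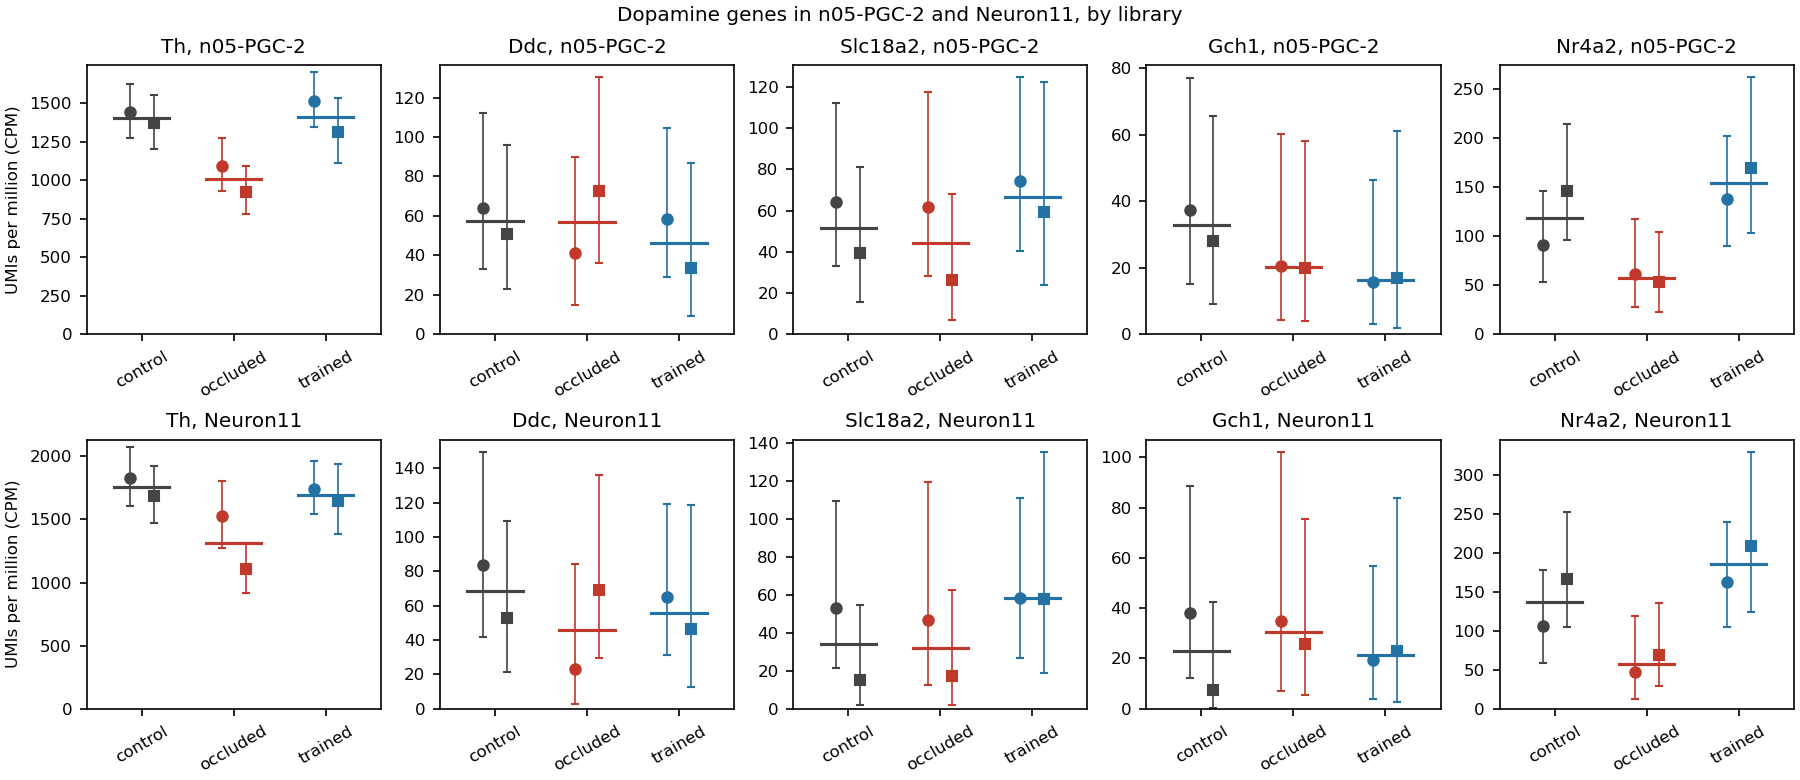
CPM of the 5 genes in each library of n05-PGC-2 and Neuron11, with the mean of each group as a line, replicate 1 as circles, replicate 2 as squares and 95% exact Poisson intervals that cover counting error only. In n05-PGC-2 the occluded libraries have the lowest Th (927 and 1092 CPM) and Nr4a2 (53.0 and 61.8 CPM), while Ddc and Slc18a2 overlap between groups.

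Neuron11 was defined on all cells, and 166 of its 168 cells are among the 377 of n05-PGC-2, so it is no independent check. Th had 1830 and 1684 CPM in control, 1524 and 1104 CPM in occluded and 1745 and 1644 CPM in trained libraries. The log2 fold change of occluded against control was −0.46 (SE 0.17, interval −0.81 to −0.11, edgeR adjusted p = 0.886), in a comparison where 0.0347% of 2885 genes were called and 15.1% had both occluded libraries lower. It was −0.71 without occluded replicate 1 and −0.27 without occluded replicate 2. Nr4a2 had 106 and 167, 46.5 and 69.0, and 162 and 208 CPM, with a change of −1.22 (SE 0.46, edgeR adjusted p = 0.886). Trained against occluded, Nr4a2 gave 1.62 (SE 0.45, edgeR adjusted p = 0.160), where 0.104% of genes were called and 14.2% had both trained libraries higher, and with the replicate number as a block the edgeR adjusted p was 0.032. In Neuron11, 97.0% and 93.3% of control cells had a Th UMI, 88.9% and 77.4% of occluded cells, and 97.5% and 100% of trained cells, and the exact two-sided permutation p of occluded against control was 0.333, the smallest that 2 against 2 libraries can give. After thinning each cell to 500 UMIs the control shares were 48.5% and 46.7% and the occluded 50% and 29.03%, so these groups then overlapped. The number of n05-PGC-2 cells was 1.72% and 2.26% of neurons in control, 2.05% and 1.44% in occluded and 1.62% and 1.40% in trained libraries, with overlap of control and occluded (exact permutation p = 0.667). Their median depth was 1908 and 1594 UMIs in control, 1303 and 3026 in occluded and 1610 and 2485 in trained libraries, and the share that lay in Neuron11 was 29.5% and 63.3% in the occluded libraries against 43.4% and 41.4% in control. Outside Neuron11, Th had 524 and 428, 470 and 342, and 416 and 411 CPM, from 12 to 29 UMIs. The change there was −0.17 (interval −1.10 to 0.77). The change in n05-PGC-2 cells inside Neuron11 minus that outside was −0.26 (interval −1.18 to 0.66, edgeR adjusted p = 1.00).

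Th in other cells was compared with Th in n05-PGC-2. In n11-GC-5, which has 1669 cells, Th had 146 and 149 CPM in control, 160 and 160 CPM in occluded and 175 and 111 CPM in trained libraries. There both occluded libraries were slightly above the controls, with a log2 fold change of 0.10 (SE 0.19, edgeR adjusted p = 0.984). This change was smaller than its SE, and the share of all genes in this order was not counted for n11-GC-5. The change in n05-PGC-2 minus that in n11-GC-5 was −0.63 (SE 0.25, interval −1.12 to −0.13, edgeR adjusted p = 1.00 over 6714 genes), so the difference did not pass. Cells that should lack Th had a low level that also varied. In nonneuronal cells Th had 10.99 and 9.30 CPM in control, 6.55 and 5.12 CPM in occluded and 10.8 and 6.11 CPM in trained libraries, with a change of −0.81 in occluded against control (SE 0.27, interval −1.41 to −0.20, edgeR adjusted p = 1.00). The change in n05-PGC-2 minus that in nonneuronal cells was 0.29 (SE 0.29, interval −0.27 to 0.85, edgeR adjusted p = 1.00), and whether the nonneuronal UMIs are free RNA from dopamine neurons was not tested. Neuron10 followed Neuron11 and Neuron05 in Th over the whole bulb, so it is not a cluster that should lack Th. In Neuron10 cells outside n05-PGC-2, Th had 106 and 64.0, 22.7 and 15.5, and 72.8 and 53.4 CPM, with a change of −2.20 (SE 0.47, edgeR adjusted p = 0.119). The olfactory ensheathing cluster OEC3 had 15 and 15, 4 and 5, and 11 and 9 Th UMIs, and its change was −2.08 (SE 0.52, edgeR adjusted p = 0.416). Both sets were taken from the 25 in which Th was tested for this comparison. The share of all genes with both occluded libraries lower was not counted for them.

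**Figure D3:**
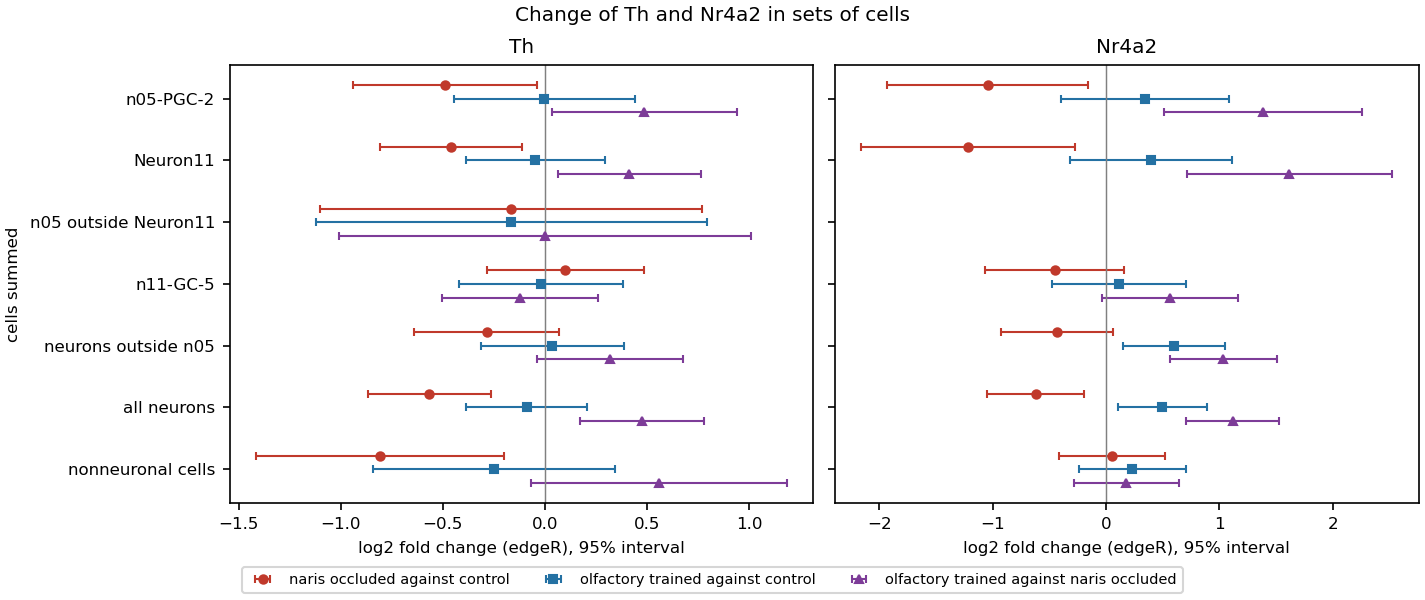
Log2 fold changes of Th and Nr4a2 with 95% intervals from the edgeR fits of each set of cells. Th in occluded against control is −0.49 in n05-PGC-2, 0.10 in n11-GC-5 and −0.81 in nonneuronal cells, and Nr4a2 in trained against occluded is 1.39 in n05-PGC-2 and 1.12 in all neurons.

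Summed over all neurons, Nr4a2 rose in trained against occluded libraries. In sums over many cell types, more cells of a type and more RNA per cell cannot be told apart. Nr4a2 had 16.2 and 18.02 CPM in control, 10.5 and 12.9 CPM in occluded and 25.7 and 21.999 CPM in trained libraries. The 3 groups did not overlap, which 12.4% of genes showed for occluded below control and 20.3% for trained above control. The log2 fold change of trained against occluded was 1.12 (SE 0.19, interval 0.70 to 1.53, edgeR adjusted p = 0.015), in a comparison that called 0.894% of 13088 genes, 0.718% of them higher, and in which 14% had both trained libraries higher. Occluded against control gave −0.62 (SE 0.20, edgeR adjusted p = 0.550) and trained against control 0.50 (SE 0.18, edgeR adjusted p = 0.499). Median depth of the neurons was 992 and 928 UMIs in control, 1306 and 1174.5 in occluded and 810 and 984 in trained libraries, and the median mitochondrial share was 15.96% and 15.4%, 11.6% and 8.79%, and 18.2% and 12.4%. The occluded libraries were thus the deepest and the lowest in mitochondrial share. Among cells of at least 1000 UMIs the change was 1.17 (edgeR adjusted p = 0.014), and the part of the mitochondrial share was not tested. The call was lost without occluded replicate 1 (0.97, edgeR adjusted p = 0.067) or trained replicate 1 (0.93, edgeR adjusted p = 0.122). Without the cells of n05-PGC-2, Nr4a2 had 13.8 and 12.2, 9.003 and 11.5, and 21.9 and 17.4 CPM. Trained against occluded was then 1.03 (SE 0.22, edgeR adjusted p = 0.044), where 0.914% of genes were called, and the call was lost without any 1 of 5 libraries, trained replicate 2 being the exception, with edgeR adjusted p from 0.022 to 0.344. It was also lost with library totals (edgeR adjusted p = 0.078), DESeq2 (adjusted p = 0.200) or cells of at least 1000 UMIs (edgeR adjusted p = 0.101). Trained against occluded, Nr4a2 was tested in 15 sets of cells, which overlap in their cells, with an estimate below 0 in 0. An unadjusted p under 0.05 was found in 8 and a call in these 2 sums, not in a single cluster. Over all genes tested in these sets, the share with such a p ran from 5.07% to 15.1%. Nr4a1, a related receptor and immediate early gene, had 28.3 and 24.1, 16.7 and 18.9, and 56.4 and 34.7 CPM in all neurons. Of the other activity genes followed, Egr1 had the same order of groups, with 56.8 and 65.8, 44.5 and 40.95, and 93.6 and 66.5 CPM. In the rest some groups overlapped. Fos had 39.2 and 55.5, 37.95 and 42.0, and 55.9 and 57.2 CPM, and Junb 48.1 and 66.0, 45.1 and 70.8, and 91.3 and 68.8 CPM. Th over all neurons had 86.5 and 94.2, 64.4 and 64.3, and 94.4 and 74.3 CPM, and its change in occluded against control was −0.57 (SE 0.14, edgeR adjusted p = 0.344).

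Gch1 rose in EC1 of trained mice. In the 2524 cells of EC1 it had 74 and 77 UMIs in control, 54 and 71 in occluded and 145 and 90 in trained libraries, or 81.7 and 91.3, 88.3 and 90.4, and 165 and 137 CPM. Both trained libraries lay above the other 4, which were close together. Trained against control gave a log2 fold change of 0.84 (SE 0.17, interval 0.49 to 1.19, edgeR adjusted p = 0.030), where 0.335% of 8665 genes were called and 17.8% had both trained libraries higher. Trained against occluded gave 0.79 (SE 0.17, edgeR adjusted p = 0.039), where 0.404% were called and 17.6% had both trained libraries higher, and the trained libraries are shared by these comparisons. Occluded against control gave 0.05 (interval −0.34 to 0.43). The call against control was lost without control replicate 1, control replicate 2 or trained replicate 1 (edgeR adjusted p = 0.467, 0.117 and 0.301), and that against occluded without control replicate 1, either occluded library or trained replicate 1, with edgeR adjusted p from 0.051 to 0.376. Cells of at least 1000 UMIs ended both calls (edgeR adjusted p = 0.063 and 0.069), and library totals and DESeq2 ended that against occluded (adjusted p = 0.051 and 0.477). In EC2, the other endothelial cluster, Gch1 had 36.2 and 28.5 CPM in control, 34.96 and 21.7 CPM in occluded and 41.4 and 21.9 CPM in trained libraries, from 2 to 10 UMIs, and the groups overlapped. In Mural1 it had 23.003 and 33.7, 73.9 and 21.3, and 94.1 and 63.6 CPM, so both trained libraries lay above the controls and overlapped the occluded ones. Gch1 was below the filter on low counts in both clusters and was not tested there. Ddc in EC1 had 77.3 and 74.7, 99.7 and 81.5, and 95.8 and 80.9 CPM, and its change in trained against control was 0.25 (interval −0.14 to 0.64, edgeR adjusted p = 0.776). Th in EC1 had 2 to 9 UMIs a library, and only 30 of the 2524 cells had a Th UMI, none more than 1, whereas 68 cells had UMIs of both Ddc and Gch1. Fos in EC1 had 183 and 231, 216 and 370, and 209 and 229 CPM, with overlap of the groups, and its part in the Gch1 values was not tested.

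**Figure D4:**
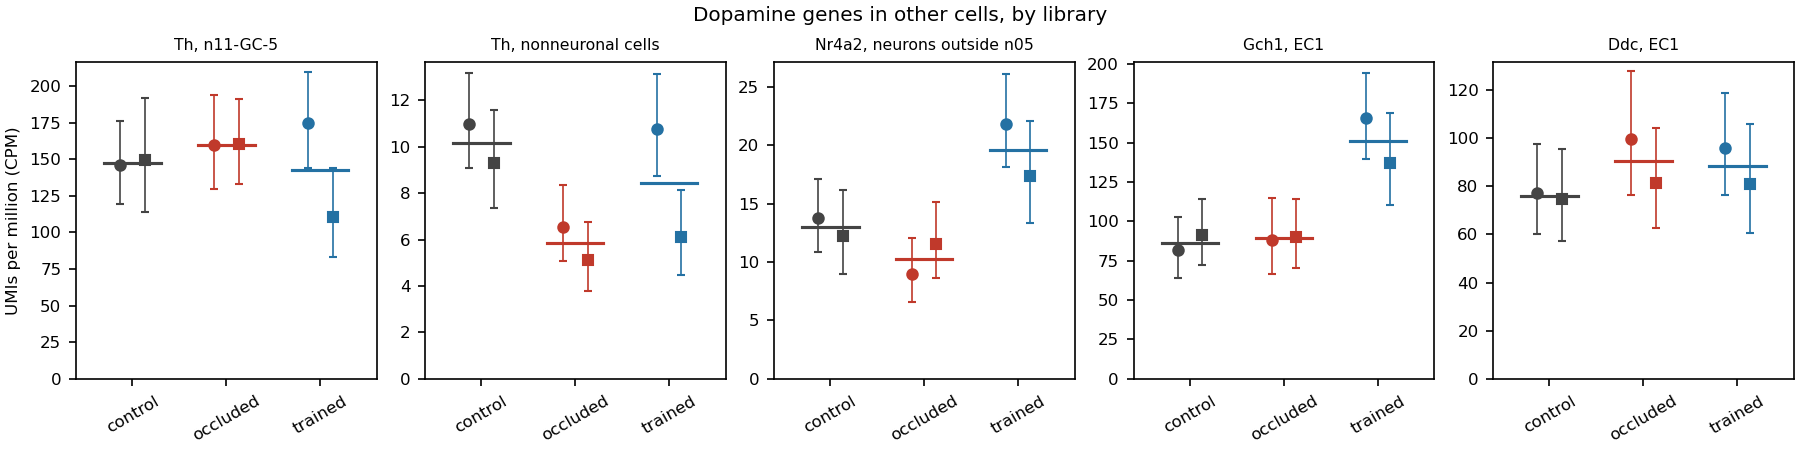
CPM by library, with 95% exact Poisson intervals of counting error, for the genes and cells outside n05-PGC-2 described in the text. Gch1 in EC1 is highest in the trained libraries (165 and 137 CPM), and Nr4a2 in neurons outside n05-PGC-2 is lowest in the occluded libraries (9.003 and 11.5 CPM).

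Over the 61 clusters and sums with at least 10 cells in every library, the 5 genes gave 915 combinations with the 3 comparisons. Of these, 174 passed the filter on low counts and were tested, and 4 were called, the 2 of Nr4a2 and the 2 of Gch1 above. In occluded against control, Th was tested in 25 sets of cells, which overlap in their cells, with an estimate below 0 in 21, an unadjusted p under 0.05 in 10 and 0 called. Over all genes tested in these sets, the share with such a p ran from 0.408% to 9.36%. Nr4a2 was tested in 15 and was below 0 in 9, with an unadjusted p under 0.05 in 4 and 0 called. Of all genes tested, 3.4% had such a p in n05-PGC-2 and 5.06% in Neuron11. Ddc was tested in 8, Slc18a2 in 5 and Gch1 in 5, with estimates below 0 in 5, 4 and 4 and an unadjusted p under 0.05 in none.

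The other genes of the pathway were taken from lists chosen by their known roles. Of the tetrahydrobiopterin genes, Pcbd1, which recycles the cofactor, was highest in n05-PGC-2, with 75.5 ± 30.5 CPM against 29.6 CPM in n17-M/TC-3, and in Neuron11 among all clusters. Qdpr, which regenerates the cofactor, had 73.3 ± 28.3 CPM, Pts, the enzyme after Gch1, 65.1 ± 31.9 CPM and Pcbd2 61.8 ± 24.6 CPM. Among neuronal clusters n05-PGC-2 ranked 5 for Qdpr and 1 for Pts and Pcbd2, with n13-AstrocyteLike close behind at 58.9 CPM for Pcbd2. Over the whole bulb all were highest elsewhere. Qdpr had 2006 CPM in the oligodendrocyte cluster MyOligo, Pts 108 CPM in the astrocyte cluster Astro1 and Pcbd2 132 CPM in Mes1. Slc6a3, the dopamine transporter of the plasma membrane, was highest in n05-PGC-2, with 68.6 ± 36.3 CPM, and next in n18-EPL-IN, with 21.05 CPM. By library Slc6a3 had 102 and 56.3 CPM in control, 124 and 53.0 CPM in occluded and 26.5 and 50.8 CPM in trained mice, which was the lowest group but did not pass (trained against occluded −1.26, edgeR adjusted p = 0.952). Slc18a1, the transporter of endocrine cells, had 0 UMIs in n05-PGC-2. The synuclein Sncb had 823 ± 176 CPM there, and n05-PGC-2 ranked 5 among neuronal clusters for it. Dbh, which would convert dopamine to noradrenaline, had 1 UMI. The receptors Drd1, Drd4 and Drd5 had 0 UMIs in n05-PGC-2, and Drd2 and Drd3 were not among the 18560 genes counted.

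Of the transcription factors tied to bulb dopamine neurons, Meis2 had 1188 ± 98.4 CPM in n05-PGC-2, which ranked 9 of 18 neuronal clusters for it, with n09-GC-3 highest at 2385 CPM. Pax6 had 585 ± 127 CPM and Etv1 485 ± 81.8 CPM in n05-PGC-2. Both had their highest neuronal mean there, with n04-Immature next at 252 CPM for Pax6 and n02-PGC-1 next at 448 CPM for Etv1, within the spread of the latter. Of the midbrain factors, Lmx1b and Otx2 had 0 UMIs, and the other 6 of the list were not among the 18560 genes counted. Among activity genes, Fos had 53.5 and 73.1, 20.6 and 33.1, and 58.3 and 254 CPM in n05-PGC-2, so trained replicate 2 stood far above trained replicate 1. Its change in trained against occluded was 2.36 (SE 0.61, edgeR adjusted p = 0.529). Junb, with 50 UMIs, had 42.8 and 39.4, 55.0 and 79.4, and 47.7 and 50.8 CPM, so its occluded libraries were the highest. Egr1 had 37.4 and 28.1, 48.1 and 26.5, and 63.6 and 76.3 CPM. Of the genes of other amines, Tph1 and Hdc, which make serotonin and histamine, had 0 UMIs in n05-PGC-2, and Slc6a2, the noradrenaline transporter, had 1.

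In occluded against control n05-PGC-2, 0 genes of these lists passed edgeR's test or had an unadjusted p under 0.05. The test covered 4 of 6 cofactor genes, with a median log2 fold change of 0.51, and 4 of 7 genes of uptake and vesicles, with −0.05. It covered 8 of 11 bulb factors, with a median of 0.07, beside a median of 0.01 over all 3613 genes tested. Of 11 activity genes 2 were covered, with a median of −0.53, and only 1 of them was lower. In trained against occluded, 0 passed as well, and Fos, Slc6a3 and Pax6 had an unadjusted p under 0.05, as did 5.07% of all genes tested.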

How the data were processed

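Cells of dissociated bulbs were captured with 10x Chromium Single Cell 3′ v2 chemistry, and the authors deposited raw UMI counts per gene and barcode in 1 table, with no normalization. The submitters' processing notes name Cell Ranger 2.0.0, Seurat 2.2.1 and mm10. An annotation deposited by the authors gives the library, the cluster and the mitochondrial fraction of every cell. Doublets had been removed by their own account, and no further filter was applied. The 1123 barcodes without a cluster were left out of all comparisons. For both trained libraries the name of a cell starts with the number of the other library, and the library was therefore read from its own column. Labels of whole-bulb clusters were matched to the names of the study by their cell counts in each library.

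Counts were summed per library and cluster. Conditions were compared with edgeR 4.0.16 (R 4.3.3), with TMM factors, filterByExpr, a quasi-likelihood fit of group over all 6 libraries, and Benjamini-Hochberg adjustment over all genes tested, at 0.05, wherever each library had at least 10 cells. Intervals are at 95%. Nothing says that mice beyond the pools were replicated, so p-values measure the spread between 2 pools a group. In each group these were a pool of males and a pool of females, and sex was not in the main fit. The spread therefore includes any difference between the sexes. With library as a block, differences between cell types were tested as interaction terms. Single shares were compared with exact permutation tests, also after thinning to 500 UMIs. The 5 genes, the pathway lists and the tests were chosen with earlier results of these data known. Named genes are the 5 genes, up to 4 genes a pathway list with the highest level in n05-PGC-2 (or any that passed), and the 5 most like Th among genes with at least 50 CPM in a cluster. Other genes were named after their values were seen. Some genes of the lists are not reported here. The fit was tested on simulated data with known changes, where it missed most of the smaller changes and also made some false calls. The alternatives comprised 66 planned ones and 6 chosen after seeing the data.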

Additional observations from a re-analysis of the deposited data

Results flagged for a closer look

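The 1123 barcodes without a cluster held UMIs of all 5 genes. They had 45 Th UMIs in 38 barcodes, 16 of Ddc, 6 of Slc18a2, 10 of Gch1 and 15 of Nr4a2, and 0 barcodes had 10 or more Th UMIs. Their Th level was 14.9 CPM, against 33.3 CPM in annotated cells. They appear here because they were outside every comparison, and with no cluster their cell type was not analysed.

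The estimated change of Th with occlusion had opposite signs in 2 clusters, but that in n11-GC-5 was smaller than its SE, so a rise there was not shown. Both occluded libraries lay below both controls in n05-PGC-2 and above both in n11-GC-5, and the change in n05-PGC-2 minus that in n11-GC-5 was −0.63 on the log2 scale (95% interval −1.12 to −0.13). With library as a block, edgeR gave this difference an adjusted p of 1.00, so it did not pass.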

How the results depend on the processing

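Under the alternatives, 181 of the values that answer a comparison were counted as unchanged, 66 moved, 21 no longer passed and 1 changed sign. Unchanged means the same direction and side of the threshold for fold changes, the same rank for levels and a similar count for called genes. For correlations and the split by a Th UMI it means a shift within the SD over libraries. Changes of sign in that split were thus counted as unchanged. Slc18a2 ran from −12.8 to 16.6 CPM without 1 library, and Gch1 was −1.36 CPM in cells of at least 1000 UMIs. Of the values of single genes, 288 kept their direction and side of the threshold, 13 changed sign and 1 newly passed. In n05-PGC-2 the count of called genes was 2 in occluded against control with no filter on low counts, and 0 in trained against occluded with DESeq2 or with only the 2 groups compared. In Neuron11, occluded against control gave 0 with DESeq2, 4 with no filter and 8 with the replicate block. Trained against control gave 2 with library totals, 0 with DESeq2 or with only the 2 groups, 15 with no filter and 10 with the block, and trained against occluded gave 1, 14 and 18 with DESeq2, no filter and the block. Leaving out 1 library at a time gave 0 to 17, 0 to 3 and 2 to 23 calls in n05-PGC-2 for occluded against control, trained against control and trained against occluded, and 3 to 9, 2 to 29 and 5 to 25 in Neuron11. The cause of these shifts was not tested, and an arm left with 1 library was assumed to vary like the others.

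For Nr4a2 in neurons outside n05-PGC-2, trained against occluded, the log2 fold change no longer passed with library totals (0.95, edgeR adjusted p = 0.078), DESeq2 (1.02, adjusted p = 0.200) or cells with at least 1000 UMIs (0.98, edgeR adjusted p = 0.101), and leaving out 1 library gave 0.78 to 1.21. In all neurons leaving out 1 library gave 0.93 to 1.26. For Gch1 in EC1, trained against control gave 0.86 with cells of at least 1000 UMIs (edgeR adjusted p = 0.063), and trained against occluded gave 0.77 with library totals, 0.80 with DESeq2 and 0.85 with such cells (adjusted p = 0.051, 0.477 and 0.069). Leaving out 1 library gave 0.67 to 0.98 and 0.62 to 0.94, and −0.037 to 0.12 for occluded against control. DESeq2 gave no adjusted p for Gch1 against control. Nr4a2 in Neuron11, trained against occluded, passed only with the replicate block (1.71, edgeR adjusted p = 0.032).

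The changes in sign of single genes were as follows. With library totals, Ddc in n05-PGC-2 was 0.0035 in occluded against control and Th 0.025 in trained against control. Leaving out 1 library gave ranges from −0.48 to 0.31 for Ddc and −0.98 to 0.24 for Slc18a2 in occluded against control, −0.17 to 0.085 for Th and −0.0036 to 0.69 for Nr4a2 in trained against control, and −0.78 to 0.21 for Ddc in trained against occluded. Th in trained against control ranged from −0.11 to 0.0069 in Neuron11 and from −0.74 to 0.092 in nonneuronal cells, where it was −0.25 with all libraries.

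Among neuronal clusters, n05-PGC-2 ranked 1 for Slc18a2 by the mean of single-cell CPM and 2 for Gch1 by the share of thinned cells with a UMI. Among whole-bulb clusters Neuron11 ranked 3 for Ddc by single-cell CPM, 5 after thinning and 3 without mitochondrial genes, and after thinning 2 for Slc18a2 and 28 for Gch1. The r with Th over 18 clusters was 0.15 for Ddc by Spearman and −0.12 with control libraries only, 0.65 for Nr4a2 by Spearman and 0.42 for Gch1 in cells of at least 1000 UMIs. Over 38 clusters Ddc had 0.022 by Spearman, 0.22 with a pseudocount of 10 CPM, 0.23 with control libraries only and 0.05 in cells of at least 1000 UMIs. Slc18a2 had 0.50 by Spearman and 0.81 with a pseudocount of 10 CPM, and Nr4a2 had 0.51 by Spearman and 0.60 in cells of at least 1000 UMIs. Same-numbered libraries had correlations of their deviations of 0.131, 0.124 and 0.0800 in n05-PGC-2 over the 3 comparisons. They were 0.102, 0.0970 and 0.0616 in Neuron11 and 0.260, 0.230 and 0.197 in all neurons, with 2 pairs each. Since the number also gives the sex, shared mice and shared sex cannot be told apart in occluded against control. The trained mice were a separate group in the study. The replicate block changed no other call of the 5 genes.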

Other observations

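Ddc also had UMIs in nonneuronal cells other than endothelial ones. The mural cluster Mural1, also of vessels, had 52.2 CPM, the oligodendrocyte cluster MyOligo 40.9 CPM and the oligodendrocyte precursors 19.5 CPM, as means over 6 libraries.

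Sall3 and Nr2f1, a pair of transcription factors named here after their values were seen, were also highest in the Th-rich cells. Sall3 had 453 ± 66.1 CPM in n05-PGC-2 and 67.7 CPM in the next neuronal cluster, n12-GC-6. Nr2f1 had 345 ± 102 CPM, with n10-GC-4 next at 131 CPM. Over the whole bulb both were highest in Neuron11, with 505 and 411 CPM. These levels are descriptions, since the clusters were made on the same counts.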
